A study of Mus musculus with 4 samples.

Results

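Muscle progenitors of the mouse molar tooth organ were described in single-cell RNA sequencing libraries of whole dissected tooth organs. The members were chosen by their own UMIs (unique molecular identifiers, 1 for each captured RNA molecule). A barcode was kept with at least 1000 UMIs and under 10% mitochondrial UMIs. It counted as a member with at least 2 UMIs of Pax7, Myf5 and Myod1 together, at least 1 of them from Pax7 or Myf5, and at most 3 UMIs of the contractile genes Myh3, Tnnt3, Acta1 and Ckm. This gave 942 members of 42164 barcodes. The maxillary molar gave 249 of them at E15.5 and 100 at P1. The mandibular molar gave 429 and 164. As these 7 genes chose the members, their levels are given as a description.

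The study compared maxillary and mandibular molar tooth organs of wild-type C57BL/6J mice (genotype label WTB6) at E15.5, an embryonic day (the sample labels give the age as E15), and at postnatal day 1 (P1; the protocol names P0/P1 pups). The labels name no treatment and no other allele. Each group was 1 library, made from 6 tooth organs pooled before sequencing, so what belongs to a group and what belongs to its library cannot be told apart. Stage and jaw were crossed, and differences are given within each jaw and each stage with no test between groups. Intervals below are exact 95% intervals and cover counting error alone, and a gene is said to pass the fold where 2 parts differed at least 2-fold with at least 50 CPM in the higher one (CPM, counts per 1000000 UMIs, summed over the cells of the part).

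Skeletal muscle of the head forms from cells that carry the paired-box factor Pax7 and the myogenic factors Myf5 and Myod1. These cells divide, and some of them switch on Myog, leave the cycle, fuse and build the contractile apparatus, while others stay as Pax7-positive satellite cells beside the fibre. Jaw muscles are known for an upstream programme of their own, with Tbx1, Msc and Tcf21 in place of Pax3. Molar tooth organs hold no muscle themselves, so muscle cells in such a dissection lie in the tissue around them.

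The sequences just before the start sites of Myog and of Chrna1, the alpha subunit of the muscle acetylcholine receptor, are shown because both genes were higher in members with Pax7 and Myod1 than in those with Pax7 and Myf5, and Myod1 binds E-boxes. Myf5 belongs to the same family of E-box-binding factors, so the sequences do not bear on which of them acts. Capitals mark every E-box, CANNTG, which reads alike on both strands. The windows are 150 bases long, from RefSeq on GRCm38.p6, at chr1:134289854-134290003 on the plus strand and chr2:73580339-73580488 on the minus strand.
Myog: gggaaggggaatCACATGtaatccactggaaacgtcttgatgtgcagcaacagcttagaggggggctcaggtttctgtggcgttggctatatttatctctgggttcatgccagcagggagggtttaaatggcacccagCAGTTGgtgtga
Chrna1: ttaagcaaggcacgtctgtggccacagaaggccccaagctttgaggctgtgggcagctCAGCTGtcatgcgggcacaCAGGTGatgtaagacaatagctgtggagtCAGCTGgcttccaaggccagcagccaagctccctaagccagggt

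The Myog window held 2 E-boxes and the Chrna1 window held 3, of which 2 read CAGCTG. Of 32851 such windows, 47.66% held an E-box and 8.389% held CAGCTG, while 0.5358% held CAGCTG 2 times or more. A match in letters does not show that a factor is bound.

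Members made up 2.57% (2.27 to 2.91) of the E15.5 maxillary barcodes and 6.52% (5.93 to 7.14) of the E15.5 mandibular ones. At P1 the shares were 0.607% (0.494 to 0.737) in the maxillary and 1.74% (1.49 to 2.03) in the mandibular molar, the last being 1.13% with barcodes shared between the P1 libraries kept. The share was thus larger at E15.5 in each jaw, and larger in the mandibular molar at each stage, by more than the counting error. The P1 maxillary members were shallower, with a median of 8489.5 UMIs per cell against 15438 in the E15.5 maxillary, 16777 in the E15.5 mandibular and 10147 in the P1 mandibular members. With every barcode thinned to 2000 UMIs, the shares were 0.470%, 1.09%, 0.217% and 0.493% in the order E15.5 maxillary, E15.5 mandibular, P1 maxillary and P1 mandibular, which is kept for all series of 4 values below. The thinning left out 539, 518, 2676 and 688 shallower barcodes, and the order of the libraries within each stage and each jaw was as before. How much of each share came from how widely the tissue was cut was not tested.

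Just inside the rule, 29, 43, 28 and 40 members had exactly 2 UMIs of Pax7, Myf5 and Myod1. Just outside it, 61, 60, 98 and 55 barcodes had 1 UMI of Pax7 or Myf5 and none of Myod1. At the contractile limit, 6, 5, 1 and 15 members had exactly 3 UMIs of the 4 genes, and 5, 4, 1 and 17 barcodes that met the rest of the rule had 4 to 10. The last library stood apart here. Its immune-like barcodes (at least 5 UMIs of Ptprc, C1qa, C1qb, Tyrobp and Fcer1g), which should lack the gene, held Acta1 at 6.75, 13.3, 15.2 and 159.6 CPM across the libraries, and 95 of its 164 members carried 1 to 3 contractile UMIs.

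**Figure D1:**
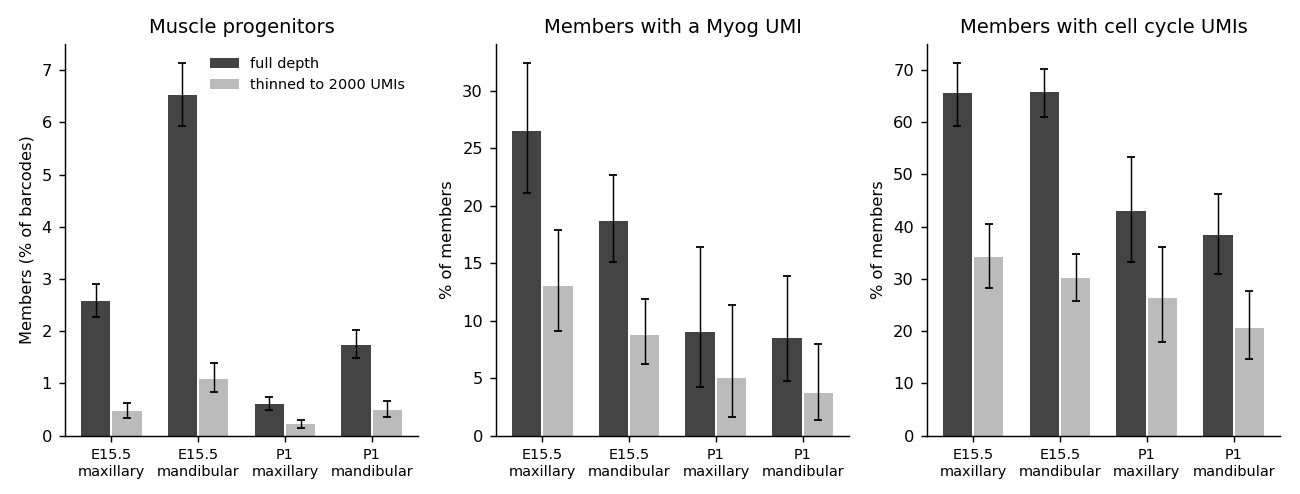
Share of barcodes that were members (left), and shares of members with a Myog UMI (middle) and with at least 2 UMIs of 5 cell cycle genes (right), in each library at full depth (dark) and thinned to 2000 UMIs (light). Error bars are exact 95% binomial intervals. The member share was largest in the E15.5 mandibular molar, at 6.52% and at 1.09% when thinned.

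The P1 libraries shared barcodes, which bears on every P1 value below. There were 7131 barcodes in both P1 matrices, against 28 to 70 for any other pair of libraries. By the rule, shared barcodes were left out of the P1 mandibular library, which lost 17 of 181 members. They were kept in the P1 maxillary library, where they were 45 of the 100 members. These 45 had a median log2 ratio of 2.07 between their maxillary and mandibular UMIs, so the larger part of their UMIs lay in the maxillary matrix as a rule, with a range of -0.35 to 2.45.

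The label was checked with 8 muscle genes the rule did not use: the cadherin Cdh15, the receptor subunit Chrna1, desmin (Des), the FGF receptor Fgfr4, Megf10, Msc, Myog and rapsyn (Rapsn). At least 2 UMIs of them were found in 96.4% (93.2 to 98.3), 97.2% (95.2 to 98.5), 76.0% (66.4 to 84.0) and 95.1% (90.6 to 97.9) of the members. In immune-like barcodes, with median depths of 10532, 13684.5, 3145 and 7979.5 UMIs, the shares were 7.50%, 13.4%, 7.17% and 10.4%. Thinned to 2000 UMIs, they were 61.0%, 52.8%, 46.5% and 61.3% in members and 0%, 0.309%, 0.439% and 0.562% in immune-like barcodes. In 3 libraries the muscle label thus fitted nearly all members, and the P1 maxillary library was the exception.

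In the P1 maxillary library 24 of 100 members lacked these muscle UMIs, and their leading genes went against the label. Pomc, the precursor of several peptide hormones, had 2161 UMIs in 16 of the 24 cells, which is 13545 CPM against 1.10 CPM in the other 76 members. Next came Syt1, a sensor of vesicle release, at 2288 against 1.10 CPM, and the prohormone convertase Pcsk2 at 809 CPM with no UMI in the 76. Chga, a protein of secretory granules, stood at 382 CPM, and the transcription factor Six6 stood at 376 CPM, again with no UMI in the 76. Pax7 itself was at 389 CPM in the 24 cells and at 212 CPM in the 76. Msc and Fgfr4 had no UMI in any of the 24. These 24 cells are called Pomc-led below, although 8 of them had no Pomc UMI, and several values of the P1 maxillary members are given with and without them. None of the 24 had a barcode shared with the P1 mandibular library, so the P1 maxillary members fell into 45 with muscle UMIs and a shared barcode, 31 with muscle UMIs and no shared barcode, and the 24.

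**Figure D2:**
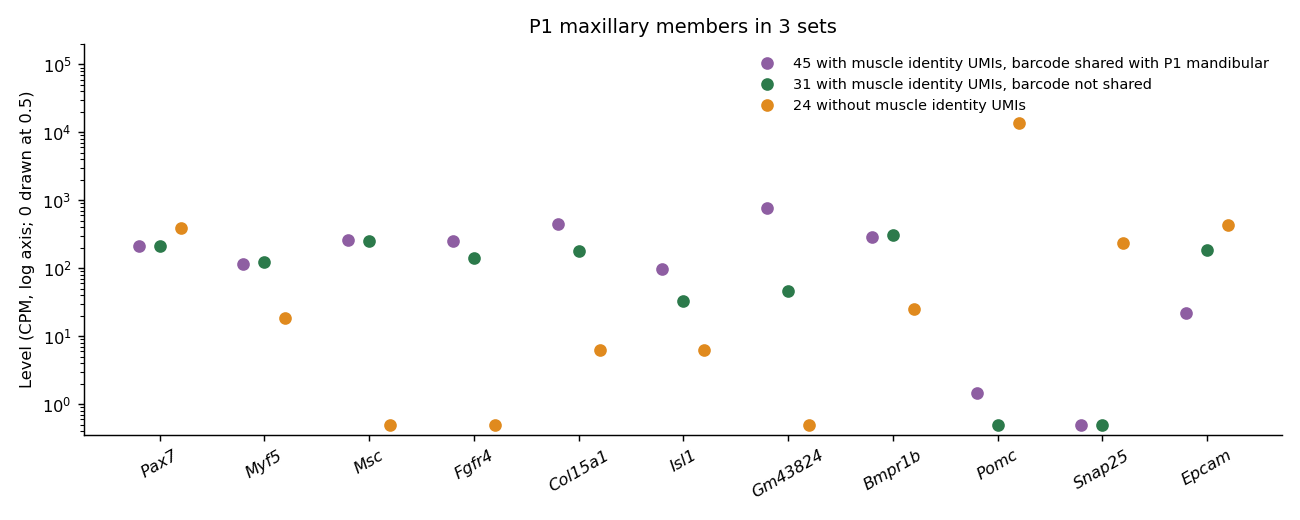
Levels of single genes in the P1 maxillary members, in CPM on a log axis, for 45 members with muscle UMIs and a barcode also in the P1 mandibular library (purple), 31 with muscle UMIs and no shared barcode (green) and 24 without muscle UMIs (orange). Each point is the sum over the cells of 1 set, and a level of 0 is drawn at 0.5. Pomc stood at 13545 CPM in the 24 cells and Msc and Fgfr4 at 0, while Gm43824 stood at 769 CPM in the 45 cells and 46.8 CPM in the 31.

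The genes of the rule were present as follows. Pax7 (ENSMUSG00000028736, chr4:139737062-139833528 on mm10) was at 147, 168, 238 and 179.7 CPM, Myf5 (chr10:107482908-107486134) at 81.6, 80.7, 102 and 125 CPM and Myod1 (chr7:46376474-46379099) at 125, 101, 104 and 111 CPM. In all other barcodes, those that neither met the gate of Pax7, Myf5 and Myod1 nor had 20 contractile UMIs, Pax7 was at 0.427, 0.615, 0.443 and 0.29 CPM. Without the Pomc-led cells Pax7 in the P1 maxillary members was at 212 CPM. Myf5 was then at 117 CPM and Myod1 at 121 CPM.

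The gate took in different mixtures of the 3 factors. Members with Pax7 UMIs alone numbered 34, 43, 33 and 28, and those with Pax7 and Myf5 but no Myod1 numbered 73, 128, 27 and 48. Pax7 with Myod1 was seen in 63, 112, 14 and 36 members and all 3 genes in 57, 122, 15 and 31. Few members had Myf5 without Pax7: 5, 8, 3 and 6 had Myf5 alone and 17, 16, 8 and 15 had Myf5 with Myod1. Of the 33 P1 maxillary members with Pax7 alone, 11 had muscle identity UMIs. A missing gene in a cell can be a missed molecule, and cells with all 3 genes were deeper, with median UMIs of 19246, 20358, 15014 and 11230 against 9516, 12042, 5795 and 6389.5 in cells with Pax7 alone.

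Msc and Myog differed between these mixtures. Msc (musculin, a repressor that is itself part of the head muscle programme, chr1:14753346-14755992) was at 420, 437, 329 and 408 CPM in members with Pax7 and Myf5. It was at 145, 162, 46.0 and 82.7 CPM in members with Pax7 and Myod1 but no Myf5. Myog, the factor of terminal commitment, ran the other way. It was at 0.767, 2.82, 25.6 and 1.86 CPM with Pax7 and Myf5, and at 539, 334, 307 and 119 CPM with Pax7 and Myod1. Chrna1 was at 5.37, 3.77, 41.5 and 0 CPM in the first and at 87.3, 59.1, 169 and 62.0 CPM in the second. Between these Pax7 combinations, the one with Myf5 had more Msc and the one with Myod1 more Myog and Chrna1 in all 4 libraries. Members with all 3 genes had Msc at 292, 363, 243 and 202 CPM and Myog at 105, 21.2, 25.6 and 12.8 CPM. Those with Myf5 and Myod1 but no Pax7 had Msc at 259, 124, 247 and 236 CPM and Myog at 307, 816, 0 and 200 CPM. Fgfr4 showed no such split, at 197, 211, 252 and 267 CPM with Pax7 and Myf5 and at 197, 194, 174 and 271 CPM with Pax7 and Myod1.

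**Figure D3:**
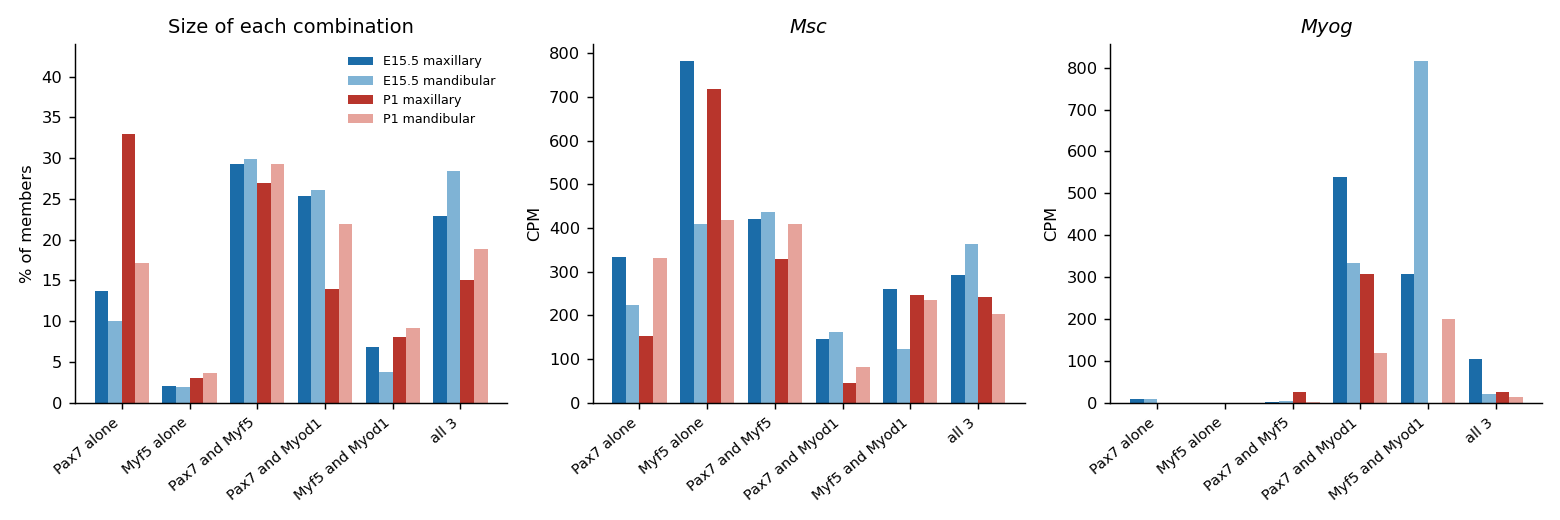
Size of each combination of Pax7, Myf5 and Myod1 UMIs as a share of the members (left), and the summed levels of Msc (middle) and Myog (right) in each combination, in CPM. Bars are the 4 libraries, 1 value each. Myog was at 119 to 539 CPM with Pax7 and Myod1 and at 0.767 to 25.6 CPM with Pax7 and Myf5, and the combinations with Myf5 alone hold 3 to 8 cells.

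Genes that marked the members against all other barcodes are a description, as the rule set these parts apart. By the smallest lower bound over the libraries they were led by Msc at 298, 309, 220.3 and 267 CPM against 3.78, 5.13, 1.09 and 1.66 CPM. Next was Mstn (myostatin, a secreted brake on muscle growth) at 46, 117, 39.4 and 119 CPM against 0.544, 2.84, 0.282 and 0.804 CPM. Fgfr4, which takes up FGF signals in muscle precursors, was at 189, 204, 190.3 and 269.8 CPM against 4.49, 7.13, 2.99 and 3.19 CPM. Cdh15, an adhesion protein of muscle precursors, was at 87.9, 111, 87.2 and 104 CPM against 3.26, 9.99, 1.47 and 1.67 CPM. Other genes in this group were Mybpc1, a myosin-binding protein, Mrln, a small inhibitor of the calcium pump, Ankrd1, Fitm1, Pitx3, Sytl2, Ank1, Cep41, Rapsn, and the unnamed transcripts Gm43824 and Gm32926. Mybpc1 was at 175, 238, 95.6 and 437 CPM in members and at 178, 65, 301 and 141 CPM in contractile-high cells, so it was not limited to the progenitor side.

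**Figure D4:**
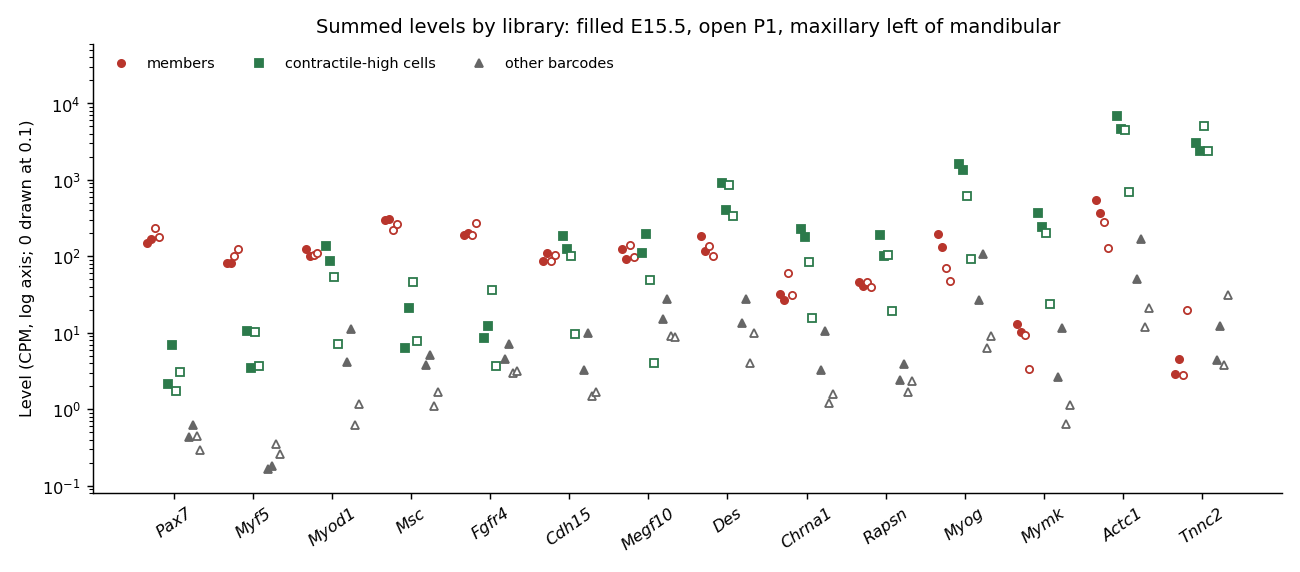
Levels of 14 muscle genes in members (circles), contractile-high cells (squares) and other barcodes (triangles), in CPM on a log axis, 1 point per library (filled E15.5, open P1, maxillary left of mandibular). Pax7, Myf5, Msc and Fgfr4 were higher in members than in contractile-high cells in each library, and Myog, Mymk, Actc1 and Tnnc2 were lower.

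Of the head muscle list, Tbx1, a factor of pharyngeal mesoderm, was at 31.6, 12.2, 41.3 and 7.84 CPM, and Tcf21, another factor of jaw muscle precursors, at 10.1, 18.3, 12.2 and 11.8 CPM against 0.107, 0.288, 0.0966 and 0.0374 CPM in other barcodes. Ebf3 was at 75.1, 104, 92.8 and 99.6 CPM. All of these were found in members of every library.

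Pax3, which acts upstream of Myod1 in trunk and limb, had a UMI in 7 of 249, 2 of 429, 6 of 100 and 1 of 164 members. Its level was 5.61, 0.384, 35.6 and 3.92 CPM, against 13, 13.4, 21.6 and 2.28 CPM in the other barcodes, and 4 of the 6 P1 maxillary cells with it were Pomc-led. Met, the receptor that migrating limb precursors use, was at 63.7, 43.3, 89.1 and 65.5 CPM against 11.8, 8.74, 8.4 and 8.72 CPM. Eya4, a transcriptional co-factor, was at 364, 399, 309 and 365 CPM, where other barcodes had 79.6, 62.6, 66.4 and 25.5 CPM. Meox2 was lower in members than in the other barcodes of each library, at 7.4, 11.3, 6.56 and 12.9 against 49.8, 134, 14.8 and 51.2 CPM.

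Members carried UMIs of 5 cell cycle genes (Mki67, Top2a, Ccnb1, Cdk1 and Cenpf) more often than the other barcodes. At least 2 UMIs of them were found in 65.5% (59.2 to 71.4), 65.7% (61.0 to 70.2), 43.0% (33.1 to 53.3) and 38.4% (30.9 to 46.3) of members, against 25.2%, 24.1%, 15.9% and 19.9% of other barcodes. Thinned to 2000 UMIs the shares were 34.1%, 30.1%, 26.3% and 20.6% in members, 13.5%, 10.6%, 11.3% and 9.72% in other barcodes, and 4.76%, 0%, 5.56% and 7.79% in contractile-high cells. Thinned intervals for members were 28.2 to 40.4, 25.8 to 34.7, 17.9 to 36.1 and 14.6 to 27.7%, so after thinning the stages overlapped in each jaw. Of the 24 Pomc-led cells, 4 had cycle UMIs, and without them 39 of 76 P1 maxillary members did. Top2a, which untangles chromosomes, was at 437, 404, 272 and 242 CPM, and Pcna, the clamp of the replication fork, at 172, 176, 158 and 152 CPM. Cdkn1c, a cell cycle inhibitor expressed from the maternal allele, was high beside them at 5594, 6796, 4141 and 3091 CPM, against 2143, 3117, 805 and 785 CPM in other barcodes. Within members it was at 7132, 8592, 6144 and 4695 CPM with a Myog UMI and at 4927, 6290, 3756 and 2934 CPM without. The 6 listed inhibitors summed to 5745, 6938, 4402 and 3262 CPM in members and 9759, 10675, 4266 and 2675 CPM in contractile-high cells. Cdkn1a, the inhibitor tied to exit in muscle, was at 15, 11.1, 88.1 and 31.9 CPM and at 605, 348, 467 and 118 CPM in contractile-high cells. Its P1 maxillary UMIs came from 14 of 100 members. In the 31 with muscle UMIs and no shared barcode it was at 285 CPM, from 4 cells.

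Myog had a UMI in 26.5% (21.1 to 32.4), 18.6% (15.1 to 22.7), 9.0% (4.2 to 16.4) and 8.54% (4.75 to 13.9) of members. Thinned to 2000 UMIs, the shares were 13.0%, 8.77%, 5.05% and 3.75%, against 0.382%, 0.617%, 0% and 0.187% in immune-like barcodes. At full depth the immune-like shares were 2.68%, 7.27%, 1.22% and 1.07%, so this background was also larger at E15.5. The share was larger at E15.5 in each jaw at full depth, and the thinned intervals overlapped between stages (9.07 to 17.9 and 1.66 to 11.4% in the maxillary, 6.25 to 11.9 and 1.39 to 7.98% in the mandibular molar). Without the Pomc-led cells, Myog was found in 9 of 76 P1 maxillary members, and in 1 of the 31 of these with no shared barcode.

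Members with Myog also held the fusion genes. Mymk (myomaker, which lets muscle cells fuse) was at 43.0, 42.5, 46.5 and 25.1 CPM in members with Myog. It was at 0, 1.31, 2.24 and 1.23 CPM in members without it. Mymx (myomixer, its partner) was at 167, 141, 209 and 43.9 CPM against 1.93, 2.13, 4.47 and 1.84 CPM. The cardiac-type actin Actc1, the first actin of young muscle, was at 1389, 1339, 1226 and 778 CPM against 189, 97.7, 102 and 63.9 CPM. Dll1, a Notch ligand, was at 27.4, 21.5, 23.2 and 25.1 CPM with Myog and at 4.18, 5.91, 5.59 and 10.4 CPM without. The P1 maxillary and mandibular values of Dll1 rest on 4 and 4 UMIs with Myog and 5 and 17 without. Those of Mymk rest on 8 and 4 UMIs with Myog and 2 and 2 without. The Notch receptor Notch3 was lower with Myog, at 35.6, 48.3, 29.1 and 43.9 CPM against 125, 135, 134 and 197 CPM, and so was Msc, at 121, 121, 29.1 and 81.6 CPM against 374, 363, 257 and 285 CPM. Pax7 was at 86.7, 97.2, 87.2 and 157 CPM with Myog and at 174, 188, 267 and 182 CPM without. The sides with Myog hold 66, 80, 9 and 14 cells, and their median depth was larger (17843.5, 19891.5, 15165 and 11588.5 UMIs).

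Contractile-high cells, barcodes with at least 20 UMIs of the 4 contractile genes, numbered 27, 57, 88 and 362. There were 9.22, 7.53, 1.14 and 0.453 members for each of them, so progenitors outnumbered contractile-high barcodes at E15.5 and not in the P1 mandibular library. In the P1 maxillary library 76 members and 82 of the 88 contractile-high cells had muscle identity UMIs. Contractile-high barcodes had muscle identity UMIs in 71.4%, 55.6%, 72.2% and 25.8% after thinning, and at least 10 mesenchyme UMIs in 14.3%, 25%, 3.70% and 53.7%, so the P1 mandibular ones stood apart. With muscle identity UMIs after thinning, 98 members and 63 contractile-high cells were left in that library, and 46 and 39 in the P1 maxillary one. Of 3051 genes compared, members were at least 2-fold higher in all 4 libraries for 118 genes (3.87%) and lower for 69 (2.26%). Since the rule bounded the contractile genes, these counts are a description. In the P1 mandibular library the contractile-high cells carried Col1a1 at 3366 CPM and Krt5 at 161 CPM with Cdh15 at only 9.59 CPM, and other cell types' RNA in them was not removed.

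Of 19 S phase genes compared, 16 were higher in members by the fold, among them Pcna, Mcm3, Rrm2 and Uhrf1. Of 26 G2/M genes 5 were, among them Mki67 and Top2a, against 3.87% of all genes. Ccne1, the cyclin of S phase entry, was at 195, 227, 166 and 124 CPM in members and at 23.3, 36.9, 17.1 and 12.4 CPM in contractile-high cells. Outside the cycle, Zfp536, a zinc-finger repressor, was at 176, 190.0, 163 and 205 against 12.7, 0, 10.3 and 12.1 CPM and the basement membrane collagen Col15a1 at 149, 175, 331 and 365 against 6.36, 12.3, 20.5 and 36.8 CPM. The Wnt and norrin receptor Fzd4 was at 60.8, 84.4, 53.4 and 85.1 against 4.24, 8.79, 5.13 and 13 CPM, and Fgfr4 at 189, 204, 190.3 and 269.8 against 8.49, 12.3, 35.9 and 3.71 CPM. Csgalnact1, an enzyme of chondroitin synthesis, had log2 ratios of 3.57, 7.12, 2.81 and 3.09, and Map2, a microtubule protein, had 2.70, 4.83, 3.11 and 4.17. C530008M17Rik, Nkain3 and Slc35f1 completed the 10 that led this side.

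The lower group held sarcomere genes, 13 of the 16 contractile-list genes compared, against 2.26% of all genes. Mylpf, the fast myosin light chain, was at 18.2, 19.1, 11.3 and 39.2 CPM in members and 9301, 5058, 9828 and 3637 CPM in contractile-high cells, and the fast troponin Tnnc2 at 2.92, 4.61, 2.81 and 19.6 against 3066, 2358, 5098 and 2386 CPM. The slow troponin Tnni1 was at 16.8, 11, 0.938 and 2.24 against 2115, 1214, 1138 and 135 CPM. Cox6a2, Smpx, Myoz2, Tnni2, Myl1, Mustn1 and Pgam2 were the rest of the 10 that led it. Ttn and Neb did not pass in all libraries: Ttn was at 328, 273, 287 and 196 CPM in members and 7027, 2337, 3425 and 361 CPM in contractile-high cells. Mef2c, a partner of the myogenic factors, and Cdkn1a were also lower in members.

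Between the stages, 3369 genes could be compared in the members of both jaws. At least 2-fold higher at P1 in both were 28 (0.831%), and lower were 12 (0.356%), with medians over all genes of -0.04 and -0.03 on the log2 scale in the maxillary and mandibular molar. In the other barcodes 202 of 3695 genes were higher at P1 and 34 lower by the same rule. These took in 5 of the members' 28 (17.9% of the 28 and 2.48% of the 202) and none of the 12, of which only 2 could be compared in the other barcodes (21 of the 28 could). The largest of the 28 by the smaller jaw were Krt5, Ctnna2, Cacnb2, Gm43824, Sox5, Dock4, Cav1, Dtna, Nckap5 and Etl4. The 12 were led by Cited1, Myog, Hist2h2ac, Fabp5, Hist1h1a, Tnnt1, Ccnb1, Hist1h3c, Hist1h1d and Hist1h1b.

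The call of many of these genes depended on the cells taken and on how levels were averaged. Of the 28, 19 passed without the Pomc-led and other cells lacking muscle UMIs, 12 with shared barcodes left out of both P1 libraries, 20 with likely doublets left out, and 11 on the mean of each cell's own CPM. Dtna and Nckap5 passed in all 4 of these. With members chosen again after thinning to 2000 UMIs, which left 43, 66, 30 and 43 cells, 15 of the 28 passed among 108 genes in all. Dtna was among the 15, with 3, 5, 5 and 30 UMIs, and Nckap5 was not, with a maxillary log2 ratio of 0.71. Dtna (dystrobrevin alpha, of the dystrophin complex) was at 28.5, 35.3, 83.4 and 174 CPM, with log2 ratios of 1.55 (1.14 to 1.95) in the maxillary and 2.30 (2.06 to 2.54) in the mandibular molar. Nckap5 was at 54, 31, 158 and 90.1 CPM, with 1.54 (1.25 to 1.83) and 1.54 (1.24 to 1.83). In other barcodes the log2 ratios of Nckap5 were 0.89 and 1.12, so it was higher at P1 there too.

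Krt5, Ctnna2, Cacnb2, Sox5, Etl4, Nol4, Grik1, Cd9 and Txnip did not pass the fold and the 50 CPM minimum without the cells lacking muscle UMIs. For Krt5 the log2 ratios were then 2.98 and 2.40, and it was the minimum in the mandibular molar that it missed. For Ctnna2 and Cacnb2 the maxillary ratio was 0.42 in each case, and for Sox5 it was -0.085. Krt5, a keratin of basal epithelium, was at 17.5, 7.17, 139 and 50.9 CPM in members and 332, 71.1, 248 and 332 CPM in other barcodes, and its P1 maxillary UMIs came from 8 of 100 cells. Epithelial markers as a list (Epcam, Cdh1, Krt5, Krt14 and Krt15) summed to 87.2, 29.3, 627 and 112 CPM in members, with Krt14 leading in the P1 maxillary library at 221 CPM. Their part in the P1 values was not tested. Sox5 was at 9.19, 17.3, 50.6 and 52.6 CPM, and at 8.82 CPM in the P1 maxillary members with muscle UMIs.

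The satellite-cell side of the list held Cav1 and Cd34. Cav1, the coat protein of caveolae, was at 30.1, 29.1, 88.1 and 127 CPM, and Cd34, a surface protein of quiescent satellite cells, at 26.5, 28.3, 67.5 and 71.1 CPM. In the P1 maxillary members with muscle UMIs but no shared barcode, Cav1 was at 18.7 CPM and Cd34 at 23.4 CPM, below the E15.5 maxillary values, so the maxillary difference rested on the shared barcodes. The mandibular log2 ratios were 2.12 (1.85 to 2.39) and 1.33 (1.00 to 1.65). Of 10 satellite cell genes compared, these 2 passed, against 0.831% of all genes, and none was lower, and the list's medians were 0.25 and 0.59. Calcr, the calcitonin receptor of quiescent satellite cells, had a UMI in 9.24%, 10.5%, 11% and 12.8% of members, with intervals that overlap, and was at 10.1, 11.1, 17.8 and 28.5 CPM. Vcam1 was at 39.2, 64.7, 16.9 and 122 CPM and Chodl at 96.9, 89.5, 90.9 and 159 CPM, and neither passed the fold. Spry1, a brake on FGF signalling in quiescence, was at 50.2, 54.3, 64.7 and 75 CPM, and Heyl, a Notch target, at 37.9, 43.3, 47.8 and 40.3 CPM.

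Col15a1 was the 1 gene of 23 in the matrix and adhesion list that passed, where 0.831% of all genes were higher at P1. It was at 149, 175, 331 and 365 CPM, with log2 ratios of 1.15 (0.96 to 1.34) and 1.06 (0.93 to 1.20). In the P1 maxillary members with muscle UMIs but no shared barcode it was at 178 CPM, nearer to the E15.5 value. Its neighbours in the basement membrane differed less: Col4a1 was at 414, 573, 516 and 679 CPM and Lama2, a laminin chain of muscle, at 489.8, 515, 622 and 657 CPM. Egfr, at 56.5, 33.6, 125 and 89.6 CPM, was the 1 of 13 growth factor receptors that passed, against the same 0.831%. Neither Egfr nor Col15a1 passed with shared barcodes left out or on the mean of each cell's CPM. Hspa1b, a heat shock gene, was at 219, 224, 469.7 and 621 CPM, and the dissociation stress list as a whole had medians of 0.54 and 1.22 over 15 genes. Fos was at 435, 438, 651 and 1226 CPM in members and 754, 444, 642 and 637 CPM in other barcodes, and the part of cell handling in these values was not tested. Socs2, a brake on cytokine signalling, was at 27.1, 12.5, 69.4 and 81.2 CPM. Hspa1b and Socs2 did not pass with shared barcodes left out.

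On the lower side, Cited1, a transcriptional co-activator, was at 77.1, 111, 26.3 and 27.4 CPM, with log2 ratios of -1.56 (-2.17 to -0.9981) and -2.02 (-2.47 to -1.60). It passed in all 4 alternatives and after thinning, where it had only 6, 18, 2 and 0 UMIs. In other barcodes it was at 15.2, 12.6, 4.75 and 2.58 CPM, so it was lower at P1 there too, at levels under the 50 CPM minimum. Myog was at 194, 133, 69.4 and 47.6 CPM, with -1.48 (-1.84 to -1.14) and -1.48 (-1.82 to -1.16). Its maxillary ratio in members was -3.85 with shared barcodes left out of both P1 libraries. In the other barcodes of the mandibular molar the log2 ratio of Myog was -3.58, so it was lower at P1 there too. The troponin Tnnt1 was at 444, 248, 199.7 and 101 CPM, with -1.15 (-1.36 to -0.95) and -1.29 (-1.52 to -1.07). Fabp5, a fatty acid carrier, was at 902, 1198, 391 and 315 CPM. Of the 12 genes, 8 passed without the cells lacking muscle UMIs, 6 with shared barcodes left out, 6 without likely doublets and 2 on the mean of each cell's CPM, where Myog was not among them. After thinning 1 of the 12 passed, among 77 genes in all, and that was Cited1. Myog then had 5, 1, 6 and 2 UMIs, with a maxillary log2 ratio of 0.78, and Tnnt1 had 23, 12, 14 and 16 UMIs, with ratios of -0.20 and 1.03, so neither kept its direction in both jaws. Without thinning, Tnnt1 passed only without likely doublets, with maxillary ratios of -0.99, -0.95 and -0.87 in the other alternatives, and Fabp5 passed neither with shared barcodes left out nor on the mean of each cell's CPM.

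Histone genes, the mitotic cyclin, Pgm5 and 2010204K13Rik were the rest of the 12, and the last pair is named only to complete the list. Hist1h1b, a linker histone, was at 804, 891, 382 and 313 CPM and Hist1h3c, a core histone, at 108, 104, 31.9 and 47.6 CPM, with log2 ratios of -1.08 and -1.51 and -1.76 and -1.13. Replication-dependent histones have near-identical copies whose reads can be split between them, and their RNA has no tail for the capture to bind as a rule, so these values are uncertain. Without thinning, Hist1h1b passed only with shared barcodes left out, and Hist1h3c passed in all alternatives but the one without likely doublets. After thinning neither passed, with log2 ratios of -0.85 and -3.08 for Hist1h1b and -2.07 and -0.80 for Hist1h3c. Ccnb1, the mitotic cyclin, was at 72.7, 61.1, 32.8 and 17.4 CPM, and of the alternatives it passed only with muscle identity UMIs required. Of 36 G2/M genes compared, Ccnb1 alone passed, against 0.356% of all genes lower at P1, and the list's medians were -0.39 and -0.54. None of 23 S phase genes passed, with medians of -0.33 and -0.39.

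**Figure D5:**
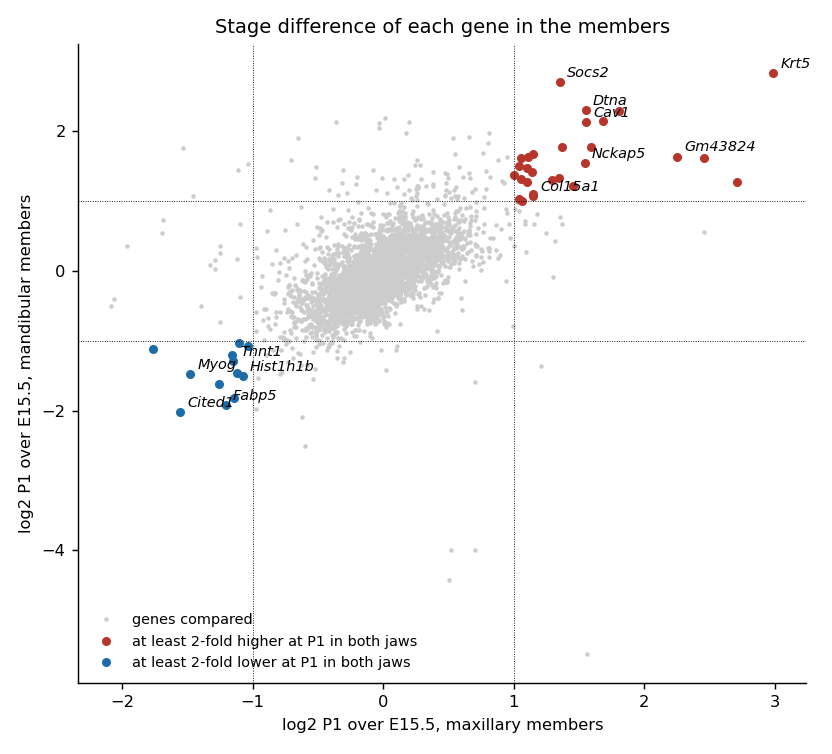
The log2 ratio of P1 over E15.5 in maxillary members (x axis) and in mandibular members (y axis) for each gene compared, with 28 genes at least 2-fold higher in both jaws in red and 12 lower in blue. Dotted lines mark 2-fold, and a gene at 0 in 1 part is drawn at its bound. Dtna is higher and Cited1 lower under all 4 other choices of cells or levels. Both also pass after thinning, Dtna on 3, 5, 5 and 30 UMIs and Cited1 on 6, 18, 2 and 0. The genes far off the diagonal below are haemoglobins.

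Between the jaws, 3225 genes could be compared at both stages. The maxillary members were at least 2-fold higher for 24 genes (0.744%) and lower for 2 (0.062%), with medians of 0.03 and 0.05 at E15.5 and P1. Of the 24, 15 passed without cells lacking muscle UMIs, 17 with shared barcodes left out of both P1 libraries, 17 without likely doublets and 16 on the mean of each cell's CPM, and 7 passed in all of these. Those 7 were Bmpr1b, Ccnd2, Mpped2, Dpysl3, Igfbp2, Pcdh17 and Stox2.

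Bmpr1b, a type 1 receptor of bone morphogenetic proteins, was at 252, 50.5, 249 and 22.9 CPM, with log2 ratios of 2.32 (2.16 to 2.49) at E15.5 and 3.44 (2.96 to 3.95) at P1. In other barcodes it was at 26.5, 23.7, 23.5 and 13.3 CPM. It was at 304 CPM in the P1 maxillary members with muscle UMIs but no shared barcode. Ccnd2, a cyclin of the entry into the cycle, was at 119, 35.7, 170 and 52.1 CPM, and Igfbp2, a carrier of insulin-like growth factors, at 184, 82.6, 187 and 30.8 CPM. Dpysl3, a protein of the growing cytoskeleton, was at 102, 30.1, 110 and 42.5 CPM.

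Isl1, a LIM factor of the second heart field and of some head muscle precursors, was at 51.1, 6.79, 71.3 and 6.72 CPM, with log2 ratios of 2.91 (2.48 to 3.37) and 3.41 (2.52 to 4.42). It had a UMI in 66 of 249, 17 of 429, 31 of 100 and 5 of 164 members. Of the 31 cells at P1, 27 had a shared barcode, and in the members with muscle UMIs but no shared barcode Isl1 was at 32.8 CPM in 3 of 31 cells. Tbx1 had log2 ratios of 1.38 (0.99 to 1.77) and 2.40 (1.50 to 3.38), and Eya1, a transcriptional co-factor, was at 96.4, 48, 169 and 58.2 CPM. Eya1 passed the fold at both stages but in none of the 4 alternatives, while Isl1 missed the 50 CPM minimum with shared barcodes left out and on the mean of each cell's CPM, where its P1 ratios were 1.67 and 3.49. In the maxillary members Isl1 and Tbx1 were thus at higher levels than in the mandibular members of the same stage, and Isl1 passed the fold at both. Tbx1 was under the 50 CPM minimum in every library, so it could not pass. Of the 27 P1 maxillary members with a Tbx1 UMI, 21 had a shared barcode. Tbx1 was at 28.1 CPM in those with muscle UMIs but no shared barcode.

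Gm43824 was at 107, 25.9, 509 and 80.0 CPM, and at 769 CPM in the 45 P1 maxillary members with shared barcodes against 46.8 CPM in the 31 with muscle UMIs and no shared barcode. It had a UMI in 41 of the 45 cells and 7 of the 31. Tenm2 and Lsamp, adhesion proteins of neurons and muscle nerves, were at 67.5, 14.7, 61.9 and 17.9 and 147, 44.1, 263 and 31.9 CPM. Lsamp was at 51.8 CPM in the P1 maxillary members with muscle UMIs and at 1467 CPM in the Pomc-led cells.

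The 2 genes higher in mandibular members were Mstn and Col19a1, and both passed in all 4 alternatives. Mstn was at 46, 117, 39.4 and 119 CPM, with log2 ratios of -1.35 (-1.58 to -1.13) and -1.60 (-2.11 to -1.12), and had a UMI in 75 of 249, 259 of 429, 15 of 100 and 91 of 164 members. Col19a1, a collagen that young muscle secretes, was at 139, 322, 57.2 and 328 CPM, with -1.21 (-1.34 to -1.08) and -2.52 (-2.92 to -2.14). Next in order, but under the fold at E15.5, were Thsd4 at 93.7, 178, 100.3 and 273 CPM (48.5 CPM in the P1 maxillary members with muscle UMIs and 395 CPM in the Pomc-led cells), the muscle co-factor Vgll2 at 67.5, 127, 15.9 and 89.6 CPM, and dystrophin (Dmd) at 151, 276, 145 and 613 CPM. The P1 log2 ratio of Thsd4 was -1.44, and it was -2.49 with muscle identity UMIs required and -0.46 with shared barcodes left out of both P1 libraries.

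The Notch pathway keeps satellite cells undivided, and its receptors were present. Notch1 was at 36.8, 46.4, 87.2 and 67.2 CPM, Notch2 at 79.8, 74, 88.1 and 119 CPM and Notch3 at 97.8, 116, 117 and 183 CPM, where other barcodes had Notch3 at 30.9, 25.3, 34.3 and 35.1 CPM. None of 9 Notch genes compared passed the fold between stages, with medians of 0.26 and 0.42, and none of 8 passed between jaws. Notch3 also belongs to the pericyte list, whose other genes in members were low, with Rgs5, Kcnj8, Abcc9 and Cspg4 making up the rest of sums of 120, 157, 151 and 239 CPM.

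Among receptors for growth factors, Fgfr1 was at 86.8, 95.7, 101 and 137 CPM, against 138, 92.9, 259 and 289 CPM elsewhere, and Igf1r at 330.3, 364, 384 and 436 CPM. The myostatin receptors Acvr2a and Acvr2b were at 74.2, 62, 114 and 69.4 and 24, 28.7, 30.9 and 25.7 CPM. Of the growth factors, Tgfb2 was at 166, 104, 169 and 176 CPM and Igf1 at 49.6, 40.2, 44.1 and 68.8 CPM, lower than the 274, 517, 111 and 253 CPM of other barcodes. Imprinted growth genes were abundant: Dlk1, which restrains differentiation, was at 950.4, 1323, 762 and 1689 CPM, Igf2 at 574, 628, 543 and 1019.9 CPM, and the zinc-finger gene Plagl1 at 421, 497, 439 and 583 CPM against 257, 426, 137 and 182 CPM. The list of 16 such genes, led by Cdkn1c, summed to 12006, 14194, 10359 and 12684 CPM in members. Contractile-high cells had more, with sums of 19236, 20428.5, 12330 and 15234 CPM, and other barcodes had 8125, 11121.5, 3736 and 4897 CPM. None of 15 such genes compared passed between stages, with medians of -0.10 and 0.04.

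The Wnt pathway was the subject of the study, and its ligands were scarce in members. None of 19 Wnt ligand genes reached the 50 CPM needed for a comparison in both jaws, and Wnt5b was at 29.6, 36.6, 48.8 and 33.6 CPM and Wnt5a at 24.4, 12.8, 23.4 and 20.2 CPM, where other barcodes had Wnt5a at 98.5, 41.9, 107 and 96.5 CPM. Receptors were better represented than ligands. Their list summed to 673, 598, 728 and 774 CPM in members, below the 1132, 801, 1048 and 1014 CPM of other barcodes. Fzd4 was at 60.8, 84.4, 53.4 and 85.1 CPM against 14.3, 20.7, 8.39 and 10.0 CPM in other barcodes, Ror1, a receptor of non-canonical Wnt signals, at 121, 82.6, 171 and 217 CPM, and Lgr4, which takes up R-spondins, at 73.1, 80.8, 67.5 and 107 CPM. None of 5 Wnt receptors passed between stages. The feedback target Axin2 was low at 10.5, 1.54, 5.63 and 3.36 CPM, against 25.8, 9.19, 17.5 and 14 CPM elsewhere, and Lef1 at 26.2, 4.74, 11.3 and 7.28 CPM. The inhibitor Wif1 was at 12.3, 2.05, 47.8 and 53.7 CPM, but at 11.2, 6.96, 65.6 and 120.4 CPM in immune-like barcodes and 64.7, 31.2, 340.0 and 399.9 CPM in other barcodes.

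Markers of other cell types were read as whole lists. The mesenchyme list (Prrx1, Pdgfra, Twist1, Col1a1 and Col3a1) summed to 1376, 873, 672 and 1681 CPM in members, against 5761, 5623, 3836 and 6619 CPM in other barcodes and 1120, 956, 730 and 1443 CPM in immune-like barcodes, with Col3a1 the gene with most UMIs. At least 10 UMIs of the list were found in 30.9%, 32.9%, 20% and 32.9% of members and in 15.54%, 9.88%, 8.92% and 13.8% of immune-like barcodes. Thinned to 2000 UMIs, the shares were 6.50%, 2.37%, 3.03% and 3.75% in members and 5.74%, 5.86%, 3.95% and 5.06% in immune-like barcodes. The part of free RNA in these values was not tested. Haemoglobins and Alas2 summed to 952, 8157, 1480 and 392 CPM, with Hbb-bs leading, against 16417, 11555, 4671 and 5790 CPM in immune-like barcodes. Endothelial genes summed to 16.6, 13.6, 90.0 and 20.7 CPM and immune genes to 74.2, 65.1, 21.6 and 7.28 CPM, with Cdh5, Cldn5, Emcn and Ptprc at 0 in the P1 mandibular members. Neuronal genes summed to 21.1, 14.3, 109 and 14.0 CPM, where Snap25 was at 0 except in the P1 maxillary members, in which all 16 cells with it were Pomc-led. Tendon genes summed to 55.4, 28.3, 40.3 and 147 CPM, glial genes to 13.5, 7.04, 27.2 and 12.3 CPM, and cartilage genes to 30.0, 70.2, 50.6 and 59.3 CPM. The doublet score marked 14.5%, 6.99%, 16.0% and 11.0% of members and 8.86%, 6.08%, 14.7% and 16.8% of all barcodes.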

How the data were processed

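Tooth organs were dissociated and sequenced as 4 single-cell libraries. The deposited values are UMI counts, which the authors made with Cell Ranger 7.0.1 on mm10 with its default cell calling and without normalization. The matrices held 10885, 7947, 18707 and 19401 barcodes with totals of 109723360, 86659227, 128812956 and 139873101 counts. From them, counts were summed over the cells of each library and expressed per 1000000 with python 3.11.15, numpy 2.4.6 and scipy 1.17.1. Ratios carry exact conditional binomial intervals, levels Poisson ones and shares Clopper-Pearson ones. The members, gene lists and rules were chosen with earlier results of these data known. The genes named are those of the lists, and the leading genes of each comparison (15 above other barcodes, 10 in each direction by stage and against contractile-high cells, and 5 by jaw), ranked by the smallest difference over the libraries. Others were named after their values were seen. Thinning drew 2000 UMIs per barcode with a fixed seed. Doublets were kept, and an alternative left out the top Scrublet scores (scanpy 1.11.5), 0.8% per 1000 barcodes. Scripts were tested on simulated data. RNAscope images were not analysed here. Some genes of the lists and rankings are not reported here.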

Additional observations from a re-analysis of the deposited data

Results flagged for a closer look

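The genes below differed at least 2-fold in opposite directions in the 2 jaws or at the 2 stages, and with 1 library in each group none of these differences was tested. Between stages, 4 matrix genes, chosen for this pattern, were lower at P1 in maxillary members and higher in mandibular ones, while the 23 genes compared of the matrix and adhesion list had medians of 0.04 and 0.63. The log2 ratios of P1 over E15.5 were -1.04 and 1.52 for Postn (periostin), -1.46 and 1.07 for Col1a2, -1.11 and 1.45 for Col1a1 and -1.53 and 1.76 for Col14a1. The mesenchyme markers summed to 672 CPM in P1 maxillary and 1681 CPM in P1 mandibular members, and their part in these values was not tested. Alcam, an adhesion protein, went the other way, at 1.21 and -1.36.

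The haemoglobin gene Hbb-bt had ratios of 1.56 and -5.48 between stages. Between jaws its log2 ratios of maxillary over mandibular were -4.45 at E15.5 and 2.59 at P1. Those of Hbb-bs were -2.80 and 2.12, those of Hba-a1 -3.23 and 1.47, and those of Hba-a2 -3.12 and 1.41. Ptn (pleiotrophin, a secreted growth factor) had 1.01 and -1.07, and Igfbp4, a carrier of insulin-like growth factors, had 1.21 and -1.20.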

How the results depend on the processing

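No paired analysis was possible because each group was 1 library and the labels give no replicate numbers. With each barcode thinned to 2000 UMIs, the member shares were 0.470%, 1.09%, 0.217% and 0.493%, the shares with muscle identity UMIs 61.0%, 52.8%, 46.5% and 61.3%, and those with cell cycle UMIs 34.1%, 30.1%, 26.3% and 20.6%. The shares with Myog were 13.0% and 8.77% at E15.5 and 3.75% in the P1 mandibular molar. With at least 3 UMIs of Pax7, Myf5 and Myod1 the member shares were 5.86% in the E15.5 mandibular, 0.437% in the P1 maxillary and 1.32% in the P1 mandibular molar. Requiring muscle identity UMIs gave 0.461% in the P1 maxillary molar, and keeping shared barcodes gave 1.13% in the P1 mandibular molar. Genes higher at P1 numbered 15 on the mean of each cell's CPM, 108 thinned (15 of the 28 among them) and 77 from 20 CPM, and genes lower at P1 numbered 4, 77 (1 of the 12 among them) and 21. From 20 CPM, 56 genes were higher and 10 lower in maxillary members. Against contractile-high cells, 381 were higher and 133 lower on the mean of each cell's CPM, and 203 and 136 from 20 CPM. With shared barcodes left out of both P1 libraries, the maxillary stage ratio turned to -1.99 for Gm43824 and -0.90 for Cav1, and the P1 jaw ratio of Gm43824 to -1.58. With muscle identity UMIs the maxillary stage ratio of Sox5 turned to -0.085. The causes were not tested. The P1 maxillary values rest on 100 members with 1066605 UMIs in all.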
